A study of Mus musculus with 4 samples.

Results

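*Ch25h*, *Cyp7b1* and *Hsd3b7* encode the enzymes that make and break down 7α,25-dihydroxycholesterol, and these 3 genes were followed, of 33696 genes in the count tables, over the fibroblasts of 4 libraries sorted from mouse melanoma tumors. The genes were taken by name, and each had 1 row in the tables (ENSMUSG00000050370, ENSMUSG00000039519 and ENSMUSG00000042289). Tumors had grown for 14 days in the peritoneal cavity after injection of 400000 B16-F1-OVA cells, a melanoma line that carries the model antigen ovalbumin. The hosts were Cxcl13-cre-tdTomato × R26R-eGFPflox mice on the C57Bl/6 strain, in which tdTomato reads current activity of the *Cxcl13* promoter and eGFP marks cells, and their progeny, that have had Cre. Cells without CD45 and CD31 and with high podoplanin were sorted by both reporters, which gave a population with neither (tdTomato-neg eGFP-neg), one with eGFP alone (tdTomato-neg eGFP+), one with tdTomato alone (tdTomato+ eGFP-neg) and one with both (tdTomato+ eGFP+). Each population was made into 1 library with the 10x 3′ v3.1 chemistry, which counts unique molecular identifiers (UMIs), so that no difference between populations could be tested across samples. Mice of both sexes were used, and the number of animals behind each library, their ages and any pooling are not given in the sources used here. The 3 comparisons with the tdTomato-neg eGFP-neg library share that library.

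Cholesterol 25-hydroxylase (CH25H) adds a hydroxyl group to cholesterol to give 25-hydroxycholesterol, and CYP7B1 adds another at the 7α position. The product is the main ligand of GPR183 (EBI2), a receptor by which B cells, T cells and dendritic cells are positioned in lymphoid tissue. HSD3B7 oxidizes the 7α-hydroxylated sterol and so ends its activity. In lymph nodes and spleen these enzymes are made by stromal cells. CXCL13 is the chemokine that brings B cells into follicles.

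A cell was kept as a fibroblast when it had 500 to 6000 genes, at most 10% mitochondrial UMIs, no *Ptprc* (CD45) UMI, no *Pax3* (melanocyte lineage) UMI and at least 3 UMIs of *Col1a1*, *Col1a2* and *Col3a1* together. This left 21098 of 24489 barcodes, which were 9866 in the tdTomato-neg eGFP-neg library, 5745 in tdTomato-neg eGFP+, 4634 in tdTomato+ eGFP-neg and 853 in tdTomato+ eGFP+. Their median depths in that order were 5776, 8397, 9118 and 8732 UMIs per cell. Across the libraries 57 barcodes occurred in 2 or more. The level of *Cxcl13* checked the sort, at 222, 199, 2203 and 1123 UMIs per 1000000 UMIs (CPM) in the same order, since the sort itself read its promoter. Of the other cell types that the gate could hold, the 4 endothelial markers summed to 2.78 to 7.28 CPM in the kept cells, the 6 immune markers to 28.4 to 52.0 CPM and the 6 melanoma markers to 5.56 to 279 CPM, highest in the tdTomato-neg eGFP-neg library. *Ptprc* and *Pax3* were at 0 by the filter, *Cd3e* was at 0 in both eGFP+ libraries and *Emcn* in tdTomato+ eGFP+.

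The bases before the annotated start are shown for 2 members and for *Cxcl13*, because *Ch25h* and *Cxcl13* were both higher in the tdTomato+ libraries while *Hsd3b7* was not. RefSeq windows of build GRCm38.p6 matched 3 of these 4 genes, and the one for *Cyp7b1* was not at hand. Each run is the 250 bases upstream of the start, 5′ to 3′ on the strand of the gene, with capitals for matches to the motifs searched on both strands.
Ch25h, chr19:34475149-34475398, minus strand: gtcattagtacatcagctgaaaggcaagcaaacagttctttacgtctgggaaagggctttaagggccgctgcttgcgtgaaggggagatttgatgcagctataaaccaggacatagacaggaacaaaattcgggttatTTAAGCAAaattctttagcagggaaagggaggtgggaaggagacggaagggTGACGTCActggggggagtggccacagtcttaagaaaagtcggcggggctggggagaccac
Hsd3b7, chr7:127800359-127800608, plus strand: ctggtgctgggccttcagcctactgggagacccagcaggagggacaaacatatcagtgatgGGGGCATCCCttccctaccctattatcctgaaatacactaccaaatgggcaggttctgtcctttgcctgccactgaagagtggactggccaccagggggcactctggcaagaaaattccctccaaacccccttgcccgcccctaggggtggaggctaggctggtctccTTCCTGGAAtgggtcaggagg
Cxcl13, chr5:95956689-95956938, plus strand: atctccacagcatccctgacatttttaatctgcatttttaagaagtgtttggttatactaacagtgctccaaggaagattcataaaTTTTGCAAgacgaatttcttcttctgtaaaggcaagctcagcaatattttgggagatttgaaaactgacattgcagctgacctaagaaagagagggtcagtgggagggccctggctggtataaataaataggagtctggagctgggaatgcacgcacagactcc

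The *Ch25h* window held 1 cAMP response element (TGACGTCA, 61 to 54 bases before the start), a motif found in 1.55% of 32851 upstream windows of the same length. It also held 1 C/EBP site (TTNNGCAA, 112 to 105 bases before the start), found in 9.56% of windows. *Cxcl13* held 1 C/EBP site, 164 to 157 bases before its start. *Hsd3b7* held 1 NF-kB site, 189 to 180 bases before its start (7.25% of windows), and 1 gamma-interferon activated site (TTCNNNGAA, 21 to 13 bases before the start, 7.02% of windows). The AP-1 site (TGANTCA, 6.75% of windows), the interferon-stimulated response element (2.98%) and the hypoxia response element core (ACGTG, 16.6%) were not in these 3 windows. These matches are letters only and were not compared with any binding data.

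By summed CPM *Ch25h* was highest in the tdTomato+ eGFP-neg fibroblasts, *Cyp7b1* was higher in both tdTomato+ libraries than in either tdTomato-neg library, and both genes were lowest in the tdTomato-neg eGFP-neg fibroblasts, while *Hsd3b7* differed little between the 4 libraries. The level of *Ch25h* was 40.2 CPM (exact 95% Poisson interval 38.8 to 41.7) in tdTomato-neg eGFP-neg, 57.7 (55.8 to 59.8) in tdTomato-neg eGFP+, 106 (104 to 109) in tdTomato+ eGFP-neg and 77.9 (72.1 to 84.0) in tdTomato+ eGFP+. None of these intervals overlapped, but they cover counting error only, and how many other genes had intervals apart was not counted. The level of *Cyp7b1* was 90.3 CPM (88.2 to 92.5), 121 (118 to 124), 230 (226 to 234) and 215 (206 to 225) in the same order. Its 2 tdTomato+ libraries were close, and both lay above the 2 tdTomato-neg libraries. The order of the 2 tdTomato+ libraries turned as a mean over cells, at equal depth and in *Xist*-only cells, where tdTomato+ eGFP+ was the higher (log2 ratios 0.22 as a mean over cells, 0.19 and 0.10 at 1000 and 2000 UMIs, and 0.16 in *Xist*-only cells). The level of *Hsd3b7* was 19.5 CPM (18.5 to 20.5), 20.1 (18.9 to 21.3), 18.5 (17.3 to 19.8) and 15.6 (13.1 to 18.5). When ordered by level, neighbours had overlapping intervals, while those of the highest (tdTomato-neg eGFP+) and lowest (tdTomato+ eGFP+) did not overlap. Levels were not compared between genes, since capture differs from gene to gene.

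**Figure D1:**
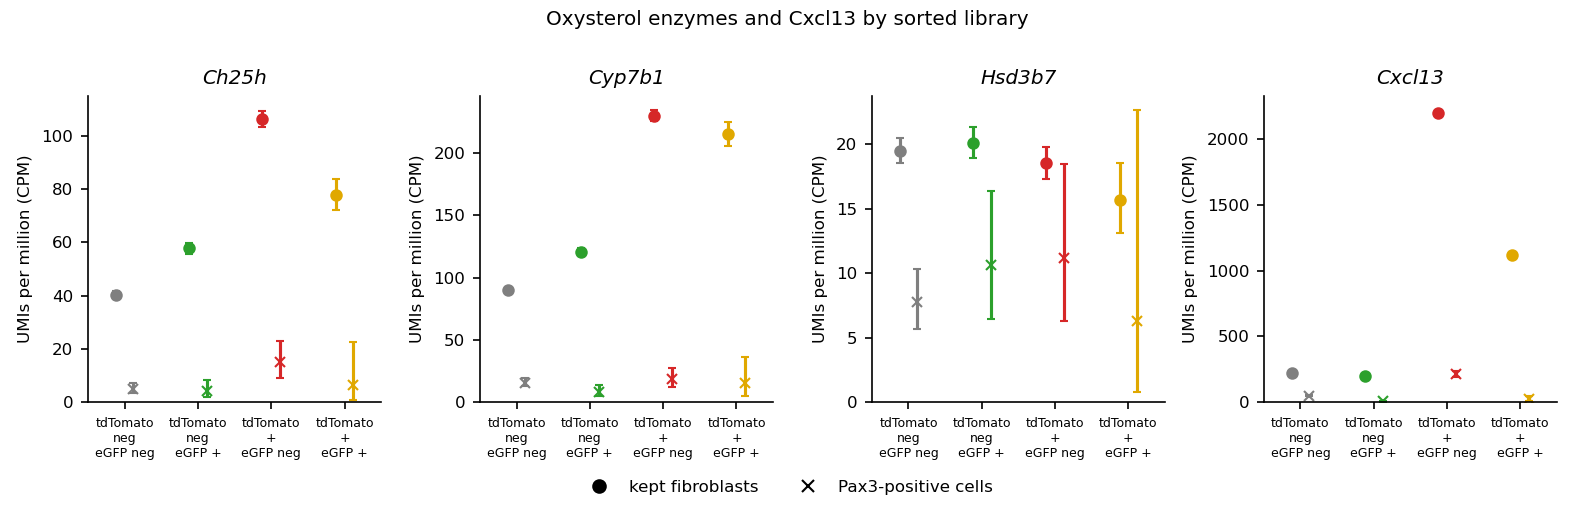
Level in UMIs per 1000000 UMIs (CPM) of each oxysterol enzyme and of *Cxcl13* in the 4 sorted libraries, with circles for kept fibroblasts, crosses for *Pax3*-positive cells and bars for exact 95% Poisson intervals. *Ch25h* and *Cyp7b1* rise from 40.2 and 90.3 CPM in the tdTomato-neg eGFP-neg fibroblasts to 106 and 230 CPM in the tdTomato+ eGFP-neg fibroblasts, while *Hsd3b7* stays between 15.6 and 20.1 CPM.

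Against the tdTomato-neg eGFP-neg library, *Ch25h* was 2.65-fold higher in tdTomato+ eGFP-neg (log2 ratio 1.40, 95% counting interval 1.34 to 1.47) and *Cyp7b1* was 2.55-fold higher (log2 ratio 1.35, 1.3 to 1.39). For *Hsd3b7* the log2 ratio was -0.07 (-0.20 to 0.05). Thus 2 of 3 members passed a log2 fold of 1 upward, where 2.34% of the 10166 genes with at least 5 CPM in 1 of the 2 libraries did so and 2.87% passed it downward, and 0.757% and 0.885% of those genes had a higher ratio than *Ch25h* and *Cyp7b1*. In tdTomato+ eGFP+ fibroblasts the log2 ratio was 1.25 (1.18 to 1.33) for *Cyp7b1*, 0.95 (0.83 to 1.07) for *Ch25h* and -0.32 (-0.58 to -0.06) for *Hsd3b7*. Only *Cyp7b1* of the members was past the fold there, against 1.9% of genes upward and 3.75% downward. In tdTomato-neg eGFP+ fibroblasts the log2 ratios were 0.52 for *Ch25h*, 0.42 for *Cyp7b1* and 0.04 for *Hsd3b7*, and no member was past the fold that 0.743% of genes reached upward and 3.35% downward. No member was lower by that fold in these 3 comparisons. Between the 2 tdTomato+ libraries, *Ch25h* was lower in the eGFP+ cells by a log2 ratio of -0.45 (-0.57 to -0.33), whereas the ratio for *Cyp7b1* was -0.09 (-0.17 to -0.02) and turned to 0.22 as a mean over cells. No member was past the fold there, which 0.12% of genes passed upward and 0.783% downward.

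For *Ch25h* and *Cyp7b1* the share of cells with at least 1 UMI followed the order of the levels, and for *Hsd3b7* it did not. *Ch25h* was found in 15.4%, 24.0%, 39.8% and 33.3% of the tdTomato-neg eGFP-neg, tdTomato-neg eGFP+, tdTomato+ eGFP-neg and tdTomato+ eGFP+ fibroblasts. *Cyp7b1* was found in 26.4%, 37.8%, 57.1% and 52.6%, and *Hsd3b7* in 12.9%, 16.4%, 15.7% and 13.2%. After every cell had been thinned to 1000 UMIs, which left out 262, 108, 34 and 11 shallower cells, the shares were 2.85%, 4.75%, 8.67% and 6.29% for *Ch25h* and 6.56%, 9.76%, 17% and 17.2% for *Cyp7b1*. For *Hsd3b7* the thinned shares were 2.36%, 2.22%, 2.07% and 1.54%. The thinned shares of *Cyp7b1* in the 2 tdTomato+ libraries had overlapping intervals, as did those of *Hsd3b7* in all 4 libraries (2.07% to 2.69% in tdTomato-neg eGFP-neg and 0.825% to 2.63% in tdTomato+ eGFP+), so no order is read from them.

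Cells that had a UMI of a synthetic enzyme often had several. The mean in positive cells was 2.01 UMIs of *Ch25h* in tdTomato-neg eGFP-neg, 2.33 in tdTomato-neg eGFP+, 2.66 in tdTomato+ eGFP-neg and 2.37 in tdTomato+ eGFP+. It was 2.62, 3.09, 4.00 and 4.14 for *Cyp7b1* in that order, and 1.16 to 1.19 for *Hsd3b7*. Cells with more than 5 UMIs of *Cyp7b1* made up 2.35% of tdTomato-neg eGFP-neg and 11.2% of tdTomato+ eGFP-neg fibroblasts, and single cells reached 64 and 63 UMIs. *Hsd3b7* did not exceed 5 UMIs in any kept cell.

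Cells outside the fibroblast rule had less *Ch25h* and *Cyp7b1* than the fibroblasts by 1 mark, and levels nearer to theirs by another. In the 472 *Pax3*-positive cells, melanoma cells by that mark, with a median of 20006 UMIs, *Ch25h* was at 6.23 CPM (4.74 to 8.04) and found in 6.57% of cells, and *Cyp7b1* was at 14.7 CPM (12.3 to 17.3) and found in 11%. Both lay under their level in every fibroblast library. *Hsd3b7* was at 8.76 CPM (6.98 to 10.9), under the 19.2 CPM (18.6 to 19.9) of all kept fibroblasts, and found in 15.7% of the *Pax3*-positive cells, against 14.5% of the fibroblasts, whose median was 7478 UMIs. At 1000 UMIs these shares were 1.27% (95% Clopper-Pearson interval 0.469% to 2.75%) and 2.22% (2.03% to 2.43%), and the intervals overlapped, so no order is read from them. The 428 *Ptprc*-positive cells had a median of 8780 UMIs and levels much nearer to those of the fibroblasts of their own library. Their *Cxcl13* was at 347, 96.4, 1995 and 620 CPM, against 222, 199, 2203 and 1123 CPM in the fibroblasts of the same libraries. The mark is therefore not read as leukocytes alone. In the order of the libraries above, *Ch25h* was at 31.8 (22.2 to 44.0), 41.2 (28.7 to 57.2), 90.6 (78.2 to 104) and 55.3 (33.3 to 86.4) CPM in them. *Cyp7b1* was at 42.4 (31.2 to 56.2), 123 (101 to 149), 188 (170 to 208) and 137 (101 to 182) CPM, with the fibroblast level inside the interval in tdTomato-neg eGFP+ and above it in the other libraries. *Hsd3b7* was at 14.1, 20.0, 21.3 and 8.74 CPM, with intervals that included the fibroblast level in each library. Over the 4 libraries *Ch25h* was found in 27.6% of these cells against 23.8% of fibroblasts, and *Cyp7b1* in 30.1% against 37.3%. The part of free RNA and of doublets in these values was not tested.

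Annotation bears on how these UMIs were assigned. *Ch25h* is a gene of 1 exon on chromosome 19, and in GENCODE M21 it overlaps Gm26902, an RNA of the opposite strand that had 503 UMIs in the kept cells against 11828 of *Ch25h*. *Cyp7b1* lies on chromosome 3, has 6 exons and spans 171947 bases. *Hsd3b7*, with up to 7 exons on chromosome 7, overlaps Gm49388 on the same strand and 9430064I24Rik on the other, neither of them among the rows of the table. Whether reads from introns were counted is not given in the sources used here.

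Cells with *Cxcl13* had more *Cyp7b1* than cells without it in every library. The comparison was made within each library, with the *Cxcl13*-zero cells weighted to the depths of the *Cxcl13*-positive cells in 10 bins, because positive cells were deeper (a median of 7791 against 5498 UMIs in tdTomato-neg eGFP-neg). In the tdTomato+ eGFP-neg library *Cyp7b1* was at 260 CPM in the 3210 positive cells and 150 CPM in the 1424 zero cells (log2 ratio 0.79, 0.72 to 0.86). The log2 ratio was 0.70 (0.62 to 0.78) in tdTomato-neg eGFP-neg, 1.03 (0.96 to 1.10) in tdTomato-neg eGFP+ and 0.48 (0.34 to 0.61) in tdTomato+ eGFP+. The value in tdTomato-neg eGFP+ was the only one of the 12 member values past a log2 fold of 1, which 0.192% of genes passed upward in that library, 0.371% in tdTomato-neg eGFP-neg, 0.139% in tdTomato+ eGFP-neg and 0.583% in tdTomato+ eGFP+. No member was lower by that fold, which 0.442% of genes were in tdTomato-neg eGFP-neg, 0.585% in tdTomato-neg eGFP+, 0.608% in tdTomato+ eGFP-neg and 2.07% in tdTomato+ eGFP+.

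For *Ch25h* the values summed over clusters were lower. Its log2 ratio was 0.50 (0.37 to 0.62) in tdTomato-neg eGFP-neg, 0.60 (0.49 to 0.72) in tdTomato-neg eGFP+, 0.23 (0.13 to 0.32) in tdTomato+ eGFP-neg and 0.41 (0.18 to 0.64) in tdTomato+ eGFP+. *Hsd3b7* was also higher in *Cxcl13*-positive cells of the tdTomato+ eGFP-neg library, at 20.1 against 13.8 CPM (log2 ratio 0.55, 0.30 to 0.80), and of the tdTomato-neg eGFP-neg library (0.31, 0.12 to 0.50). In the other two libraries its interval included 0. Within clusters the order of *Ch25h* and *Cyp7b1* was not the same throughout. In tdTomato-neg eGFP-neg the log2 ratio was 1.01 (0.74 to 1.29) for *Ch25h* and 0.90 (0.64 to 1.16) for *Cyp7b1* in the mesothelial-like cells, and 1.04 (0.82 to 1.27) and 0.97 (0.84 to 1.1) in the unnamed cluster. In the mesothelial-like cells of tdTomato+ eGFP+ it was 1.75 (0.77 to 2.8) and 0.88 (0.20 to 1.58). In the hypoxic inflammatory-like cells of tdTomato+ eGFP-neg it was 0.00 (-0.16 to 0.17) for *Ch25h* and 0.66 (0.47 to 0.84) for *Cyp7b1*. With zero cells weighted to the clusters as well as the depths of the positive cells, the value in tdTomato+ eGFP+ was 0.27 for *Cyp7b1*, down from 0.48, and 0.31 for *Ch25h*. Cells of 1 library share their animals and their handling, and the intervals take no account of differences between cells beyond counting.

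Graded by the *Cxcl13* level of the cell, *Cyp7b1* was higher at each step in tdTomato+ eGFP-neg and *Ch25h* was not. In tdTomato+ eGFP-neg the level of *Cyp7b1* was 150 CPM in *Cxcl13*-zero cells and 185, 271 and 342 CPM in the lowest, middle and highest of 3 equal groups of *Cxcl13*-positive cells. *Ch25h* was at 94.0, 113, 112 and 109 CPM in the same cells, with overlapping intervals over the 3 groups, the highest of which had 8608 CPM of *Cxcl13*. In tdTomato-neg eGFP+ both genes rose, *Cyp7b1* from 99.9 to 308 CPM and *Ch25h* from 52.0 to 97.1 CPM. In tdTomato-neg eGFP-neg *Cyp7b1* went from 81.1 to 193 CPM and *Ch25h* from 37.2 to 63.7 CPM. In tdTomato+ eGFP+ *Cyp7b1* was at 186 CPM in the zero cells, did not exceed that in the lowest group (interval 163 to 204) and was at 234 and 352 CPM in the others. *Ch25h* was at 68.3, 99.9, 71.8 and 87.9 CPM there, with no order. The groups were not matched for depth, and the lowest held the deepest cells (a median of 10721 against 8489 UMIs in the highest group of tdTomato+ eGFP-neg).

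**Figure D2:**
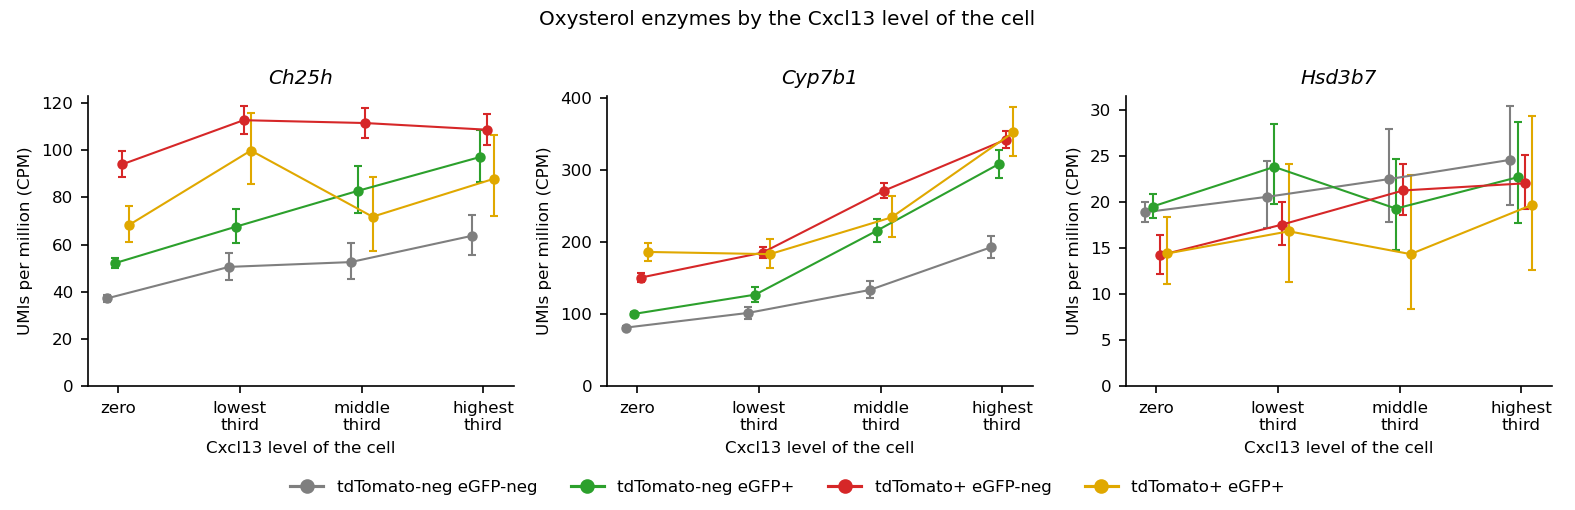
Level in UMIs per 1000000 UMIs (CPM) of each oxysterol enzyme in cells with no *Cxcl13* UMI and in 3 equal groups of the *Cxcl13*-positive cells by their *Cxcl13* level, with lines for the 4 libraries and bars for exact 95% Poisson intervals. In tdTomato+ eGFP-neg *Cyp7b1* climbs from 150 to 342 CPM, while *Ch25h* stays at 109 to 113 CPM over the 3 groups.

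Co-detection in single cells was counted against that expected from depth, and the differences between libraries were not tested. The intervals take the expected number as fixed, so whether they include 1 does not decide if the genes were independent. The ratio has less room above 1 where a gene is found in more cells, so its size is not compared between libraries. *Cxcl13* was found in 69.3% of tdTomato+ eGFP-neg and 14.4% of tdTomato-neg eGFP-neg fibroblasts. *Ch25h* and *Cxcl13* were found together in 340 cells of tdTomato-neg eGFP-neg, 1.29 times (1.16 to 1.44) the 263 cells expected if both were independent within 10 bins of depth. The ratio was 1.27 (1.14 to 1.40) in tdTomato-neg eGFP+, 1.04 (0.99 to 1.09) in tdTomato+ eGFP-neg and 1.01 (0.86 to 1.18) in tdTomato+ eGFP+. For *Cyp7b1* and *Cxcl13* it was 1.33 (1.23 to 1.44), 1.39 (1.28 to 1.49), 1.07 (1.03 to 1.10) and 1.12 (1.00 to 1.25) in the same order. As shares not matched for depth, *Cyp7b1* was in 62.5% of *Cxcl13*-positive and 44.9% of *Cxcl13*-zero cells of tdTomato+ eGFP-neg. In tdTomato-neg eGFP-neg these shares were 41.0% and 24.0%. For *Hsd3b7* and *Cxcl13* the ratio was 1.18 (1.04 to 1.34), 1.05 (0.91 to 1.21), 1.09 (1.01 to 1.18) and 1.09 (0.84 to 1.4). With every cell thinned to 2000 UMIs and no depth bins, *Ch25h* and *Cxcl13* were together in 52 cells of tdTomato-neg eGFP-neg against 48.0 expected, a ratio of 1.08 (0.81 to 1.42). In that measure the ratio was 1.44 (1.13 to 1.81) in tdTomato-neg eGFP+, 1.08 (0.98 to 1.19) in tdTomato+ eGFP-neg and 0.96 (0.63 to 1.4) in tdTomato+ eGFP+. For *Cyp7b1* and *Cxcl13* it was 1.37 (1.15 to 1.63), 1.81 (1.55 to 2.11), 1.2 (1.13 to 1.28) and 1.24 (0.99 to 1.53) in the same order.

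For *Ch25h* and *Cyp7b1*, the 2 steps of synthesis, the ratio was above 1 in every library. The interval of tdTomato+ eGFP+ included 1, which does not decide if the genes were independent. The ratio was 1.31 (1.22 to 1.40) in tdTomato-neg eGFP-neg, 1.24 (1.16 to 1.32) in tdTomato-neg eGFP+, 1.09 (1.04 to 1.14) in tdTomato+ eGFP-neg and 1.07 (0.93 to 1.22) in tdTomato+ eGFP+. At 2000 UMIs it was 1.84 (1.51 to 2.21), 1.5 (1.23 to 1.8), 1.12 (0.98 to 1.29) and 1.08 (0.71 to 1.58). With the expected number taken within clusters as well as depth bins, it was 1.24, 1.16, 1.07 and 1.05. *Ch25h* and *Hsd3b7* gave 0.91 to 0.99, with intervals that included 1. *Cyp7b1* and *Hsd3b7* gave 0.89 (0.81 to 0.99) in tdTomato-neg eGFP-neg and 0.95 to 0.99 in the other libraries. Without the depth bins the first of these became 1.15. At 2000 UMIs it was 0.69 (28 cells against 40.6 expected), and 1.01, 0.89 and 0.93 in the other libraries. *Ch25h* and *Hsd3b7* gave 0.68, 1.03, 0.64 and 0.73 there, from 14, 19, 16 and 2 cells with both.

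**Figure D3:**
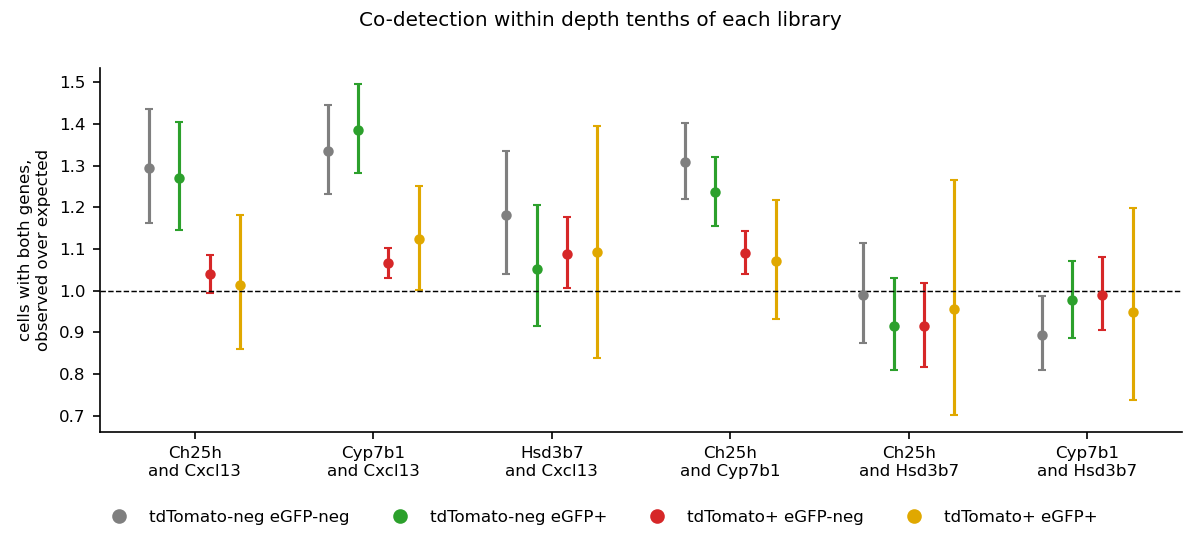
Number of cells with UMIs of both genes of a pair over the number expected if the genes were independent within 10 bins of cell depth, for 6 pairs and 4 libraries, with bars for exact 95% Clopper-Pearson intervals and a dashed line at 1. Pairs of *Ch25h*, *Cyp7b1* and *Cxcl13* lie at 1.24 to 1.39 in the tdTomato-neg libraries and at 1.01 to 1.12 in the tdTomato+ libraries. In the tdTomato+ libraries these genes were found in more cells, which leaves the ratio less room above 1, so its size is not compared. The bars take the expected number as fixed.

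As plain shares, 27.3% of tdTomato+ eGFP-neg fibroblasts (95% Clopper-Pearson interval 26.0% to 28.6%) had UMIs of both synthetic enzymes, against 7.51% (7% to 8.05%) of tdTomato-neg eGFP-neg, 13.4% (12.5% to 14.3%) of tdTomato-neg eGFP+ and 20.8% (18.1% to 23.6%) of tdTomato+ eGFP+. *Ch25h*, *Cyp7b1* and *Cxcl13* were found together in 21.5%, 2.08%, 4.23% and 10.7% of cells in that order. In the tdTomato+ eGFP-neg library 826 cells (17.8%) had *Cxcl13* and neither synthetic enzyme. These shares are as sequenced and not matched for depth, and the tdTomato-neg eGFP-neg library was the shallowest.

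The cells were clustered with the 3 members, *Cxcl13* and the pathway genes held out, 81 genes in all, and the members then differed between clusters in 3 different ways. *Ch25h* was highest in a hypoxic inflammatory-like cluster of 2764 cells, in which 6 of 6 markers of that name (among them *Serpinb2* and *Ndrg1*) were higher by a log2 fold of 1. *Cyp7b1* was highest in an unnamed cluster of 6156 cells led by *Kcnq5*, *Col24a1*, *Muc13*, *Cacnb2* and *Il1rapl1*. *Hsd3b7* was highest in a universal fibroblast-like cluster of 1478 cells (5 of 6 markers), of which 1394 came from the tdTomato-neg eGFP-neg library and whose leading genes were *Inmt*, *Efhd1*, *Ces1d*, *Tek* and *Opcml*. A mesothelial-like cluster (5753 cells, 7 of 8 markers) and a matrix fibroblast-like cluster (4685 cells, 5 of 8 markers) completed the fibroblasts. Another 129 cells led by *Ccl3*, *Il1b* and *Rgs1* and 133 led by *Gsta1*, *Mlana* and *Tspan10* had immune and melanoma genes in front and went against the fibroblast rule, and leaving them out moved the log2 ratios between libraries given above by less than their counting intervals.

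Summed over the libraries, *Ch25h* was at 4.26 CPM in the universal fibroblast-like cells, 34.6 in the mesothelial-like cells, 77.1 in the unnamed cluster, 117 in the hypoxic inflammatory-like cells and 48.2 in the matrix fibroblast-like cells. The hypoxic inflammatory-like cluster had more *Ch25h* than the remaining cells in each library, by a log2 ratio of 1.56 in tdTomato-neg eGFP-neg, 0.98 in tdTomato-neg eGFP+, 0.53 in tdTomato+ eGFP-neg and 0.41 in tdTomato+ eGFP+. When no gene was held out of the clustering, the cluster that shared most cells with it held 7717 cells, 1818 of them shared, and its *Ch25h* log2 ratio was -0.32.

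*Cyp7b1* was at 36.9 CPM in the universal fibroblast-like, 42.5 in the mesothelial-like, 233 in the unnamed, 131 in the hypoxic inflammatory-like and 118 in the matrix fibroblast-like cluster. These sums pool libraries of different levels. The matrix fibroblast-like cells were above the hypoxic inflammatory-like cells in tdTomato-neg eGFP+ (146 against 125 CPM) and in tdTomato+ eGFP-neg (178 against 137 CPM), and under them in tdTomato-neg eGFP-neg (103 against 113 CPM, with overlapping intervals) and in tdTomato+ eGFP+ (103 against 161 CPM). In the unnamed cluster it reached 322 CPM in tdTomato+ eGFP-neg and 328 CPM in tdTomato+ eGFP+, against 160 and 174 CPM in the tdTomato-neg libraries. Genes of long span moved with that cluster. Of 1481 genes spanning at least 100000 bases, as *Cyp7b1* does, 30.9% were higher there by a log2 fold of 1, against 7.89% of all genes, and 11.6% had a higher ratio than *Cyp7b1*. The cluster also had the highest share of *Malat1*, a nuclear RNA, at 2.68% of its UMIs, and the part of unspliced or nuclear RNA in the *Cyp7b1* level was not tested.

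*Hsd3b7* was at 42.1 CPM (35.6 to 49.4) in the universal fibroblast-like, 24.8 in the mesothelial-like, 17.2 in the unnamed, 19.8 in the hypoxic inflammatory-like and 14.6 in the matrix fibroblast-like cluster. The universal fibroblast-like cells were shallow, with a median of 2012 UMIs, and at 1000 UMIs per cell *Hsd3b7* was found in 3.5% of them against 1.66% to 2.92% in the other 4 fibroblast clusters. Of the 5 fibroblast clusters, this was also the one with the lowest *Ch25h*. Of its cells with UMIs of *Xist* or of Y-linked genes but not both, 97.3% had *Xist*. That share was 56.2% in the tdTomato-neg eGFP-neg library. The part of sex or animal in the *Hsd3b7* level of this cluster was not tested.

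**Figure D4:**
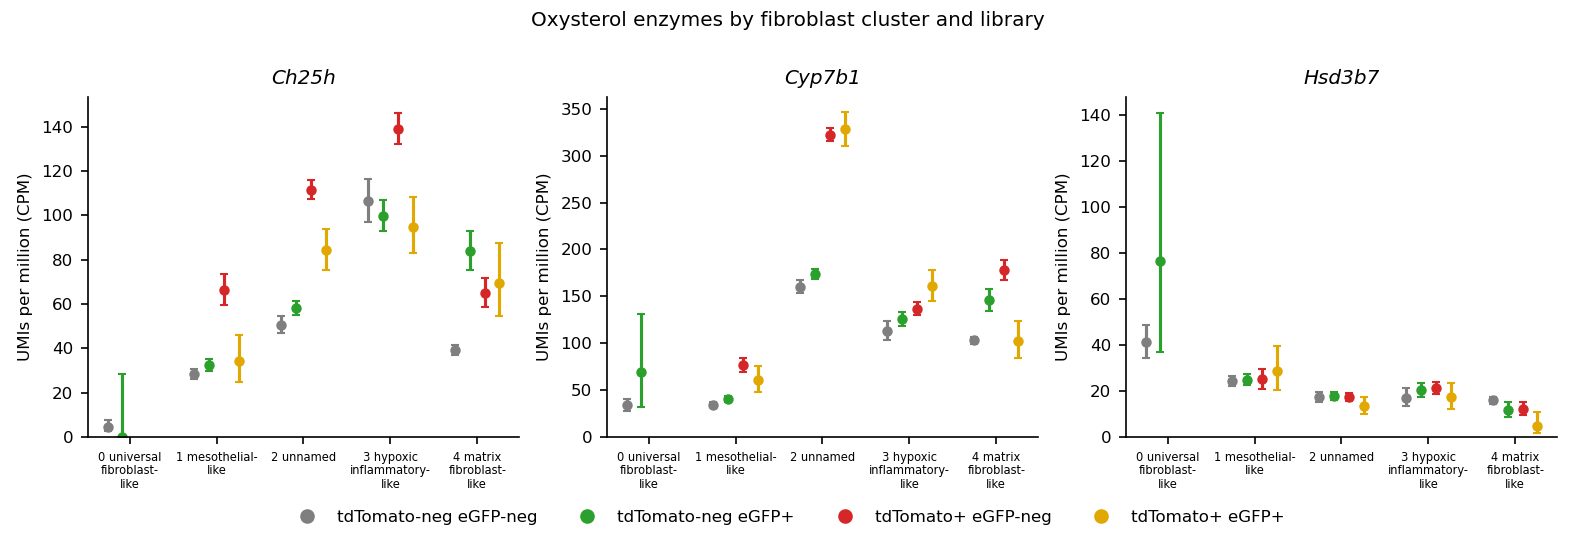
Level in UMIs per 1000000 UMIs (CPM) of each oxysterol enzyme in the 5 fibroblast clusters, with a point for each library that had at least 50 cells there and bars for exact 95% Poisson intervals. *Ch25h* peaks in the hypoxic inflammatory-like cluster (117 CPM over the libraries), *Cyp7b1* in the unnamed cluster (233 CPM) and *Hsd3b7* in the universal fibroblast-like cluster (42.1 CPM).

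The mix of clusters differed between libraries, and part of the difference between libraries went with it. The unnamed and the hypoxic inflammatory-like cluster made up 46.4% and 25.3% of the tdTomato+ eGFP-neg fibroblasts, and 14.2% and 5.02% of the tdTomato-neg eGFP-neg fibroblasts. With the 4 clusters that both libraries held in number given equal weight, the log2 ratio of tdTomato+ eGFP-neg over tdTomato-neg eGFP-neg fell from 1.40 to 0.76 for *Ch25h* and from 1.35 to 0.80 for *Cyp7b1*, a choice made after the clusters were seen. Within clusters both genes were higher in tdTomato+ eGFP-neg each time. For *Ch25h* the log2 ratio was 1.22 in the mesothelial-like, 1.14 in the unnamed, 0.38 in the hypoxic inflammatory-like and 0.73 in the matrix fibroblast-like cluster, and for *Cyp7b1* it was 1.15, 1.01, 0.27 and 0.79. *Hsd3b7* gave 0.03, 0.01, 0.32 and -0.41 there, and only the last interval (-0.79 to -0.04) lay off 0.

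Cells with *Xist* and no Y-linked UMI, and cells with the reverse, come from different animals, so sex and animal cannot be told apart here. Both sets also differed in depth in tdTomato-neg eGFP-neg, at medians of 7122 and 10062 UMIs. *Ch25h* was higher in the *Xist*-only cells of every library, at 49.9 against 38.2 CPM in tdTomato-neg eGFP-neg, 89.3 against 41.7 in tdTomato-neg eGFP+, 122 against 82.6 in tdTomato+ eGFP-neg and 91.7 against 50.9 in tdTomato+ eGFP+. *Cyp7b1* was at 142 against 81.1, 165 against 120, 251 against 262 and 281 against 172 CPM in the same order. Within either set of cells the tdTomato+ eGFP-neg level stayed above the tdTomato-neg eGFP-neg level, by log2 ratios of 1.29 (*Xist*-only) and 1.11 (Y-only) for *Ch25h* and 0.83 and 1.69 for *Cyp7b1*.

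The genes most like each member were those with the highest mean over the 4 libraries of Pearson's r across cells, among 8525 genes found in at least 5% of the cells of each library. For *Ch25h* they included *Serpinb2* (mean r 0.22), *Thbs1* (0.20), *Timp1* (0.19) and *Ereg* (0.19). For *Cyp7b1* they were *Lrmda* (0.37), *Chl1* (0.32), *Trps1* (0.32), *Adamts9* (0.31) and *Slit3* (0.31), all 5 with spans of over 100000 bases. For *Hsd3b7* they were *Prr13* (0.14), *Dmkn* (0.13), *Igfbp6* (0.13), *Dcn* (0.12) and *Emp3* (0.12). With *Cxcl13* the mean r was 0.17 for *Cyp7b1*, 0.05 for *Ch25h* and 0.03 for *Hsd3b7*, and between *Ch25h* and *Cyp7b1* it was 0.12. All cells of a library share its depth and its mix of clusters, and values as low as these carry no finding in sparse counts.

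Few other genes of the pathway reached the level needed for a comparison. Of 15 other oxysterol and bile acid enzymes with the receptor, 5 reached 5 CPM in the comparison of tdTomato+ eGFP-neg with tdTomato-neg eGFP-neg, none passed the fold in either direction (2.34% of genes passed it upward and 2.87% downward), and their median log2 ratio was 0.10, as over all genes. *Gpr183*, the receptor of the product, had 28 UMIs in the 21098 fibroblasts, a level of 0.151 CPM. *Cyp7a1*, which begins bile acid synthesis in liver, had no UMI in the kept cells of the 4 libraries, and *Cyp27a1*, which makes 27-hydroxycholesterol, was at 3.01 CPM in tdTomato-neg eGFP-neg and 1.11 CPM in tdTomato+ eGFP-neg. *Hsd11b1*, which also acts on 7-oxygenated sterols, was lower in tdTomato-neg eGFP+ (6.19 against 18.7 CPM, log2 ratio -1.60), as 3.35% of all genes were. *Cyp39a1*, another oxysterol 7α-hydroxylase, was lower in tdTomato+ eGFP+ (2.55 against 5.49 CPM, log2 ratio -1.11, -1.80 to -0.49), as 3.75% of all genes were. It had only 22 UMIs in that library.

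Of 26 genes of sterol synthesis and uptake, 25 were tested and none passed the fold in the 4 comparisons. Over all genes 0.12% to 2.34% passed it upward and 0.783% to 3.75% downward, so this count was near the share over all genes. For the 25 genes the median log2 ratio against tdTomato-neg eGFP-neg was -0.15 in tdTomato+ eGFP-neg, where the median of all genes was 0.10. In tdTomato-neg eGFP+ it was 0.33, against 0.10 over all genes. In tdTomato+ eGFP+ it was -0.17, against -0.02 over all genes. Of 12 genes of sterol sensing and efflux, 11 were tested and 2 were higher in tdTomato+ eGFP-neg and none lower, where 2.34% of all genes were higher and 2.87% lower. These were *Abca1*, which exports cholesterol (47.7 against 23.5 CPM, log2 ratio 1.02), and *Apoe*, which carries it (537 against 260 CPM, log2 ratio 1.05). *Nr1h3*, which encodes the oxysterol receptor LXRα, was at 9.33, 4.34, 6.61 and 4.75 CPM in tdTomato-neg eGFP-neg, tdTomato-neg eGFP+, tdTomato+ eGFP-neg and tdTomato+ eGFP+, and was lower by the fold in tdTomato-neg eGFP+ (log2 ratio -1.10), as were 3.35% of all genes.

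Among 14 stromal organizer genes, 11 were tested and 2 were higher in tdTomato+ eGFP-neg (2.34% of all genes were), namely *Enpp2*, which encodes autotaxin (243 against 86.9 CPM, log2 ratio 1.48), and *Tnfsf11*, which encodes RANKL (13.9 against 5.92 CPM, 1.23). *Tnfsf11* was also higher in tdTomato+ eGFP+ (log2 ratio 1.59, past the fold with 1.9% of all genes). *Ccl19*, which draws CCR7-bearing lymphocytes, was lower in tdTomato+ eGFP+ (19.9 against 74.5 CPM, log2 ratio -1.90) and in tdTomato-neg eGFP+ (10.8 CPM, -2.79), and by the fold between the tdTomato+ libraries (-1.01). In tdTomato-neg eGFP+, *Cxcl12* (-1.61) and *Tnfsf13b*, which encodes BAFF (-1.08), were lower as well. Of all genes, 3.75% were lower by the fold in tdTomato+ eGFP+, 3.35% in tdTomato-neg eGFP+ and 0.783% between the tdTomato+ libraries. None of the 10 NF-kB and interferon response genes passed the fold in the 4 comparisons. Over all genes 0.12% to 2.34% passed it upward and 0.783% to 3.75% downward. For the 10 genes the median log2 ratio against tdTomato-neg eGFP-neg was 0.34 in tdTomato+ eGFP-neg, against 0.10 over all genes.

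**Figure D5:**
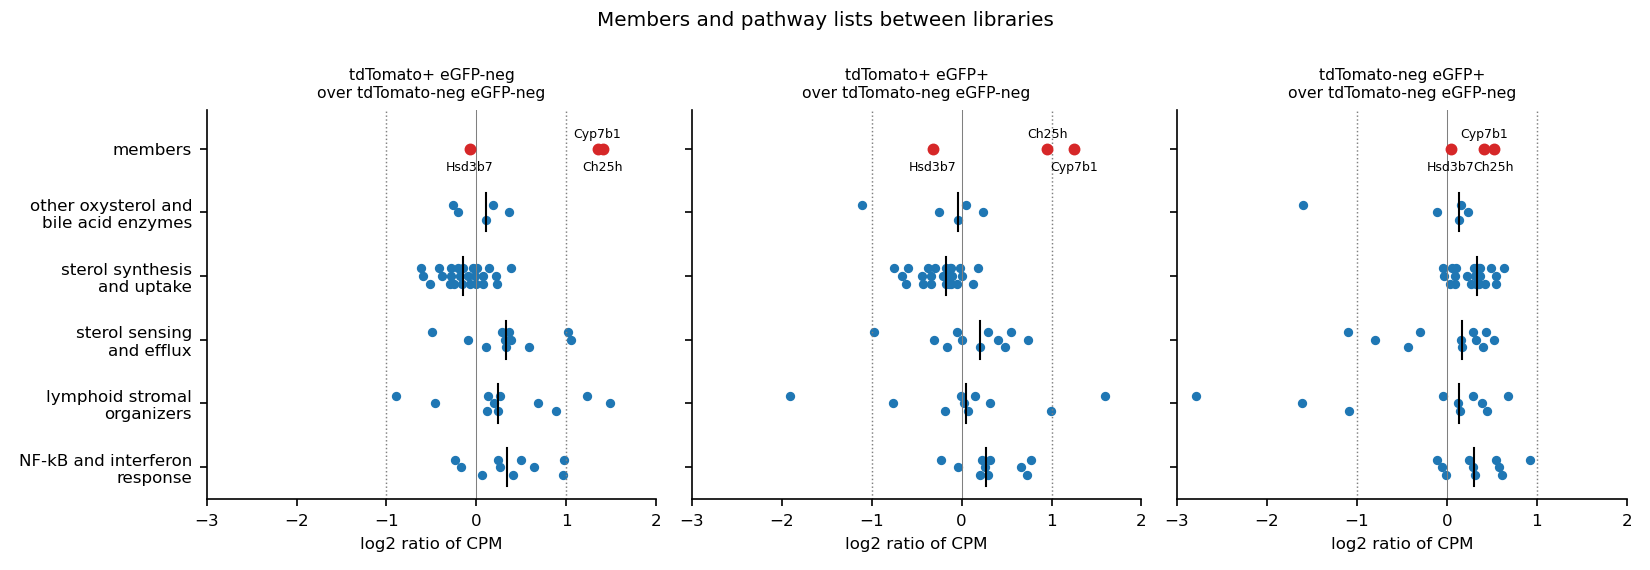
Log2 ratio of CPM of each library over the tdTomato-neg eGFP-neg library for the 3 members (red) and for the tested genes of 5 pathway lists (blue), with black bars for list medians and dotted lines at the log2 fold of 1. *Ch25h* and *Cyp7b1* lie at 1.40 and 1.35 in tdTomato+ eGFP-neg. No gene of sterol synthesis and uptake passes the lines in any panel. Over all genes 0.743% to 2.34% passed the upper line and 2.87% to 3.75% the lower.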

How the data were processed

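Droplet single-cell RNA-seq was measured in 4 sorted populations of 1 library each. The authors deposited raw UMI counts per gene and barcode (Cell Ranger 8.0.0 per the file headers; the submitters' processing notes list Cell Ranger 10.0.0 and build GRCm39). Totals ran from 10071954 to 90259852 UMIs per library, and intervals cover counting error only.

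UMIs were summed over kept cells and divided by all UMIs (CPM), with exact 95% Poisson intervals, exact conditional intervals for ratios and Clopper-Pearson intervals for shares. With 1 library per population no test was run, and a log2 fold of 1 among genes with at least 5 CPM stood in for one. Cells were clustered with scanpy 1.11.5 (2000 variable genes, 25 components, 20 neighbours, resolution 0.3, the smallest with at least 7 clusters). Doublets were kept, since Scrublet called 251, 0, 0 and 3 cells, and removing the expected number was an alternative. The members, lists and tests were chosen with earlier results of these data known. Named genes were the members and *Cxcl13*, list genes past the fold (at most 4 per list and comparison), set defining genes, the 5 genes most like each member and the leading genes of clusters. A few genes named by this rule are not reported here. Scripts were tested on simulated data. Alternatives changed the cell filters, sex mark, depth handling, thresholds and clustering. Promoter windows and gene spans came from RefSeq (GRCm38.p6), where 75.8% of gene symbols matched, and overlaps from GENCODE M21.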

Additional observations from a re-analysis of the deposited data

Results flagged for a closer look

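*Cyp7b1* moved in opposite directions between the 2 tdTomato+ libraries in different cells, and this difference was not tested. The log2 ratio of tdTomato+ eGFP+ over tdTomato+ eGFP-neg was 0.23 (counting interval 0.06 to 0.40) in the hypoxic inflammatory-like cluster and -0.79 (-1.09 to -0.51) in the matrix fibroblast-like cluster, which held 97 cells of the first library. It was 0.16 (0.07 to 0.25) in cells with *Xist* and no Y-linked UMI, and -0.61 (-0.76 to -0.46) in cells with the reverse.

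*Gpr183*, the receptor for the product of CH25H and CYP7B1, was seen in cells that the comparisons do not use. In the 428 cells with a *Ptprc* UMI it was at 8.12 CPM (5.68 to 11.2) and found in 6.31% of cells, against 0.151 CPM in the kept fibroblasts.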

How the results depend on the processing

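Over the alternatives, 92 of 127 values of the main comparisons stayed within the counting interval of the reported value (counts of genes within 1.5 times), 34 moved past it and 1 reversed. For tdTomato+ eGFP-neg over tdTomato-neg eGFP-neg, the *Ch25h* log2 ratio of 1.40 was 1.29 in *Xist*-only cells, 1.11 in Y-only cells, 1.60 as a mean over cells, 1.71 at 1000 UMIs per cell and 0.76 with equal cluster weights. *Cyp7b1* (1.35) was 0.83, 1.69, 1.51, 1.52 and 0.80 in that order, and 1.46 at 2000 UMIs. *Hsd3b7* (-0.07) was 0.055 in Y-only cells, -0.23 as a mean over cells and -0.25 at 1000 UMIs. The 238 genes higher and 292 lower by the fold became 433 and 650 from 1 CPM upward, 3360 and 1891 at a log2 fold of 0.25, and 161 were lower in Y-only cells. The tdTomato+ eGFP+ over tdTomato+ eGFP-neg ratio of *Cyp7b1* (-0.09) turned to 0.16 in *Xist*-only cells, 0.22 as a mean over cells, and 0.19 and 0.10 at 1000 and 2000 UMIs.

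In the tdTomato+ eGFP-neg library, the *Cxcl13*-positive over zero ratio of *Cyp7b1* (0.79) was 0.63 in *Xist*-only cells, 1.19 in Y-only cells and 0.88 from 2 *Cxcl13* UMIs, and that of *Ch25h* (0.23) was 0.35 in Y-only cells. Co-detection of *Cyp7b1* and *Cxcl13* (1.07) was 1.2 at 2000 UMIs per cell without depth bins, and of *Ch25h* and *Cyp7b1* (1.09) was 1.2 without depth bins. Without depth bins *Cyp7b1* and *Hsd3b7* in tdTomato-neg eGFP-neg went from 0.89 to 1.15, and at 2000 UMIs per cell to 0.69.

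The *Ch25h* ratio inside over outside its cluster (1.09) was 0.92 with 40 components and -0.32 with no gene held out, where the matched cluster was 7717 cells wide. Without 1 library in turn it ran from 0.76 (without tdTomato-neg eGFP-neg) to 1.22. That of *Cyp7b1* (1.40) was 1.16 with 15 components and 1.5 with no gene held out, and 1.24 to 1.55 without 1 library. That of *Hsd3b7* (1.16) was 1.15 to 1.61 without 1 library, highest without tdTomato-neg eGFP-neg, which held 1394 of its 1478 cells. Apart from the clustering values and those named, the cause of a move was not tested. No paired analysis was possible because each population was 1 library. Among the other values 334 of 429 stayed, 90 moved and 5 reversed.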
